A study of Mus musculus with 4 samples.

Results

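Gene deserts of the mouse autosomes were examined for trimethylation of lysine 9 on histone H3 (H3K9me3) in CD8+ T cells with and without Suv39h1. A desert here is a 1 Mb bin, on a grid that starts at 3 Mb of each chromosome, in which no RefSeq protein-coding gene has its midpoint. Of 2394 autosomal bins, 268 (11.2%) met this rule, and they formed 183 runs of neighbouring bins. The study made 1 H3K9me3 chromatin immunoprecipitation library and 1 input library from wild-type (WT) C57BL/6 cells, and the same pair from Suv39h1-knockout (KO) cells on that background. All cells were CD8+ T cells kept for 3 days in culture with antibodies against CD3 and CD28 and with IL-2. The labels give neither the age of the mice nor the form of the knockout allele, and they do not say how many animals went into a library. The H3K9me3 signal was read through 1 deposited list of enriched stretches, called islands, per genotype. There was 1 library per genotype, so no difference below has a replicate check, no test between genotypes was made, and every value describes these 2 libraries.

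H3K9me3 marks constitutive heterochromatin and is bound by HP1 proteins, which help keep the underlying DNA silent. SUV39H1 and its relative SUV39H2 write the mark chiefly at the satellite repeats beside centromeres, while SETDB1 writes much of it over retroelements in the chromosome arms. Gene deserts are AT-rich, late-replicating stretches that tend to lie against the nuclear lamina, and they can hold long-range enhancers, long noncoding RNAs (lncRNAs) and microRNAs. The cell type could not be checked through expression, since none was measured. Of 11 T cell genes, such as Cd3e, Cd8a and Lck, 0 carried an island in either list, and neither did Cd4 nor any of 4 B cell genes. Of 4 myeloid genes 1, Adgre1, carried 2 islands in each list. The share of all genes with an island was not computed, and these counts do not tell T cells from B cells.

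Stretches without protein-coding genes were not empty of other annotation. The 268 bins held 455 lncRNA genes, 627 pseudogenes and 344 variable (V) segments or V-segment pseudogenes of antigen receptors, the last in 5 bins. A protein-coding gene whose midpoint lay elsewhere reached into 59 bins, and in 10 of them gene bodies filled at least 50% of the sequence, such as Ptprd and Lsamp, which each filled 100% of a bin. RefSeq sequences of build GRCm38.p6 (the assembly that mm10 names) were matched to the bins by position, which gave 17 microRNA hairpins and 419 promoters of 357 genes. Of the hairpins, 3 lay in a WT island and 2 in a KO island. WT islands covered 5.93% and KO islands 18.6% of desert sequence, and with 17 hairpins the counts are too small to read against that cover. The hairpins in WT islands were Mir6342, Mir195b and Mir3059, and those in KO islands were Mir1187 and Mir3961. The mature sequences are shown because they identify the transcribed elements under a desert island, with the seed (bases 2 to 8) in capitals. The mature miR-6370 also lay in a KO island, and its hairpin was not matched. The last pair, miR-181a-5p and miR-181b-5p, lay under no island and is shown because its bin, described further on, lost islands beside the T cell gene Ptprc. The sequences miR-6342 and miR-195b share a seed, and so do those of miR-181a and miR-181b.
mmu-miR-6342: cAGCAGCAaucuggucuuugag
mmu-miR-195b: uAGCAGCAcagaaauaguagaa
mmu-miR-3059-5p: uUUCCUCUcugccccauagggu
mmu-miR-1187: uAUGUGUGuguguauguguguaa
mmu-miR-3961: uGCCCUCAgcucaguugga
mmu-miR-6370: gCAGGAACagcaaaggggaag
mmu-miR-181a-5p: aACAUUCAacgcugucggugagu
mmu-miR-181b-5p: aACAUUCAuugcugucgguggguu

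Of the 419 desert promoters (250 bases before to 50 after a gene start, with several starts for some genes), 22 (5.25%, exact 95% binomial interval 3.32 to 7.84) lay under a WT island. Under a KO island lay 56 (13.4%, 10.3 to 17.0). In autosomal bins with genes the shares were 3.07% in WT and 3.69% in KO of 30838 promoters. Islands covered 5.93% (WT) and 18.6% (KO) of desert sequence, and 5.61% and 9.30% of bins with genes. The KO share in deserts and both shares in bins with genes thus lay below the cover. For WT in deserts the cover lay inside the interval of the promoter share. A promoter counted at 1 bp or more of overlap is also not the same measure as cover. Among lncRNA promoters alone the shares were 5.41% and 14.4% in deserts, and 2.87% and 3.97% in bins with genes. Within the deserts, 13 promoters were covered in WT alone, 47 in KO alone and 9 in both. Of the 419, 388 belong to lncRNA genes. These had a median GC content of 42.7% and 2 CG dinucleotides, against 48.7% and 4 for the 10887 lncRNA promoters of bins with genes. No CG was found in 15.0% of all desert promoters, against 5.21% of all 31257 autosomal promoters. The share was 31.8% for desert promoters under a WT island (22 of 20 genes) and 25% under a KO island (56 of 52 genes). Bins with genes also had higher shares under islands, at 16.7% in WT and 20.1% in KO, against 5.08% of all their promoters. The median GC content of desert promoters was 37% under WT islands and 40% under KO islands. The 4 promoters below lie in bins described further on and are shown as examples of desert sequence under islands, with each CG in capitals. CG reads the same on both strands. Gm39631 (chr1:41533262-41533561, mm10, minus strand) and Gm34585 (chr13:88520943-88521242, plus strand) were covered in KO alone. Gm39639 (chr1:47433274-47433573, plus strand) and Gm34306 (chr1:137770951-137771250, plus strand) were covered in both. All 4 are lncRNA genes.
Gm39631: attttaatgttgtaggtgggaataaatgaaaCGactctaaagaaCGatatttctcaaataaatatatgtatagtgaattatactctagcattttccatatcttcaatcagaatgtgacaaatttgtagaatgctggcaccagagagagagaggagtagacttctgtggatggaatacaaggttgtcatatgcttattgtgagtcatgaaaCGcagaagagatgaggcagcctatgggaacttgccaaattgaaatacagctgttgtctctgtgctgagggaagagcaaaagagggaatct
Gm34585: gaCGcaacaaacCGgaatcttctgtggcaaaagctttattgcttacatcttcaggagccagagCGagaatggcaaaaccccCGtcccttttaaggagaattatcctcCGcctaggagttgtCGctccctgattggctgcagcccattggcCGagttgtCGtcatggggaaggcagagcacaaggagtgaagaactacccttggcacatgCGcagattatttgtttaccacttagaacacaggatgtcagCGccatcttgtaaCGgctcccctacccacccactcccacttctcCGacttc
Gm39639: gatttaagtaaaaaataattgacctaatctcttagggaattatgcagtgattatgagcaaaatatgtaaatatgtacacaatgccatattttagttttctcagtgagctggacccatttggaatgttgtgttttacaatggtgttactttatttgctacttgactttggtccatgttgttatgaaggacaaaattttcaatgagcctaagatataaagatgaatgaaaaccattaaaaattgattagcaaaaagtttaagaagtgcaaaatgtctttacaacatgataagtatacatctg
Gm34306: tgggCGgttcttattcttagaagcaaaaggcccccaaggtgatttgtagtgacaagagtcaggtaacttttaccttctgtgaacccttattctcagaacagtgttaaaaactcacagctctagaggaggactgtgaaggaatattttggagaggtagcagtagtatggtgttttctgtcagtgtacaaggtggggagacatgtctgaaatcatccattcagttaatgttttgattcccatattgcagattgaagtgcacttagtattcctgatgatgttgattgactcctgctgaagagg
Gm39639 held 0 CG dinucleotides, Gm34306 held 1 and Gm39631 held 3, while Gm34585 held 12 at 52% GC. Islands in KO alone thus lay over both a CG-poor and a CG-rich start.

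Deserts held more islands in the KO list than in the WT list. There were 1426 WT islands and 5097 KO islands in the 268 bins, a ratio of 3.57, and they covered 5.93% (WT) and 18.6% (KO) of the bins. A bin had a median of 4 WT islands, with quartiles of 3 and 7 and a highest value of 22. It had a median of 19 KO islands, with an upper quartile of 23.25, a lower quartile of 13 and a highest value of 45. KO islands outnumbered WT islands in 254 bins, were fewer in 11 and were equal in 3. WT islands were absent from 13 bins and KO islands from 1. The deserts took 11.5% of autosomal WT islands, close to their 11.2% share of the bins, and 20.1% of autosomal KO islands.

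Each bin was placed in a class. It gained islands when the KO number was at least 2 times the WT number and at least 3 higher, lost them in the reverse case, and kept them when both lists had islands and neither rule applied. By this rule 232 deserts gained islands (86.6%, 81.9 to 90.4), 30 kept them (11.2%, 7.68 to 15.6) and 3 lost them (1.12%, 0.231 to 3.24). Another 2 had 2 KO islands each and no WT island, and 1 had no island in either list. The same rule called gain in 42.2% of all 2394 autosomal bins and in 36.6% of those with genes. Over all autosomal bins it called loss in 8.73% and kept in 38.3%, while 3.88% had no island and 6.85% had fewer than 3 in 1 list alone. The KO list is longer over the whole genome, by 2.05 times on the autosomes, so a gain by this rule is partly that of the list. With the KO number of each bin divided by this ratio, 125 deserts (46.6%) gained, against 17.9% of all autosomal bins, and 11 (4.10%) lost, against 19.3%. With the KO list reduced to the number of WT islands, keeping those with most reads, 135 deserts gained (50.4%), against 19.6% of all autosomal bins, and 15 lost, against 25.2%. Only 3 of the 232 gaining deserts stood at exactly 2 times, and none at a difference of exactly 3.

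**Figure D1:**
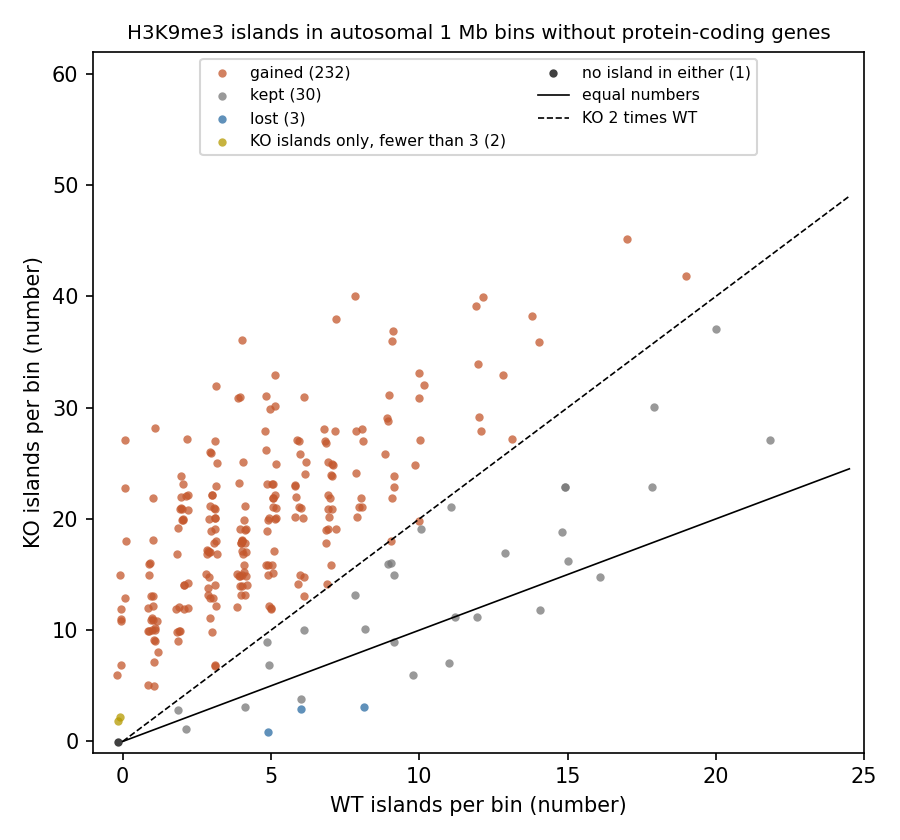
Number of WT islands (horizontal) and KO islands (vertical) in each of the 268 autosomal 1 Mb bins without protein-coding genes, with points moved by up to 0.2 to separate them, coloured by class. The 232 gaining bins lie on or above the dashed line of 2 times the WT number, and the 3 losing bins lie at 5 to 8 WT islands below the line of equal numbers.

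Bins with 1 gene came close to the deserts. The 301 bins with exactly 1 protein-coding gene held a median of 4 WT and 16 KO islands, against 4 and 19 in deserts. Of these 301 bins 249 (82.7%, 78.0 to 86.8) gained, against 86.6% of deserts. The interval covers counting of bins only. In bins with 2 to 4 genes the medians were 5 and 12 and the gaining share 52.6%. With 5 to 12 genes they were 4 and 5, and 25.3% gained, and with 13 or more genes 3 and 2, and 12.9%. The KO to WT ratio of island number went from 3.57 in deserts through 3.28, 2.17 and 1.43 to 1.23 over these steps. Bins with 1 to 4 genes had a higher ratio next to a desert (2.97, 219 bins) than elsewhere (2.39, 571 bins), though they also held fewer genes, with a median of 1 against 2. Neighbouring bins are not independent of each other.

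**Figure D2:**
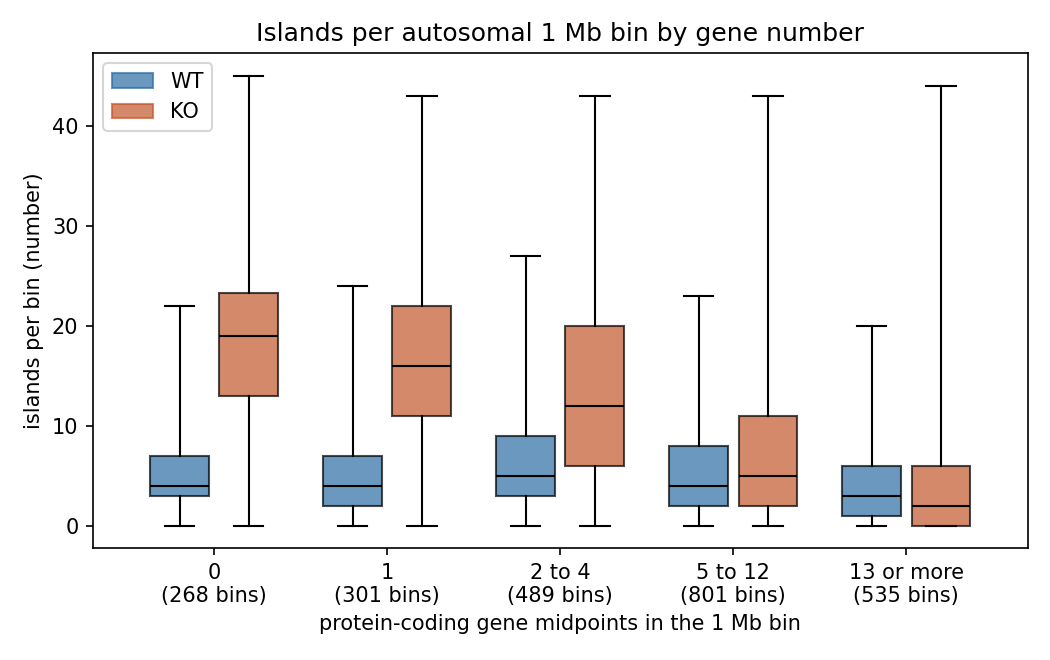
Islands per autosomal 1 Mb bin (vertical, number) by the number of protein-coding gene midpoints in it (horizontal), for WT and KO. Boxes span the quartiles, the line is the median and whiskers reach the lowest and highest bin. The KO median falls from 19 with 0 genes to 2 with 13 or more, while the WT median stays between 3 and 5.

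The added KO islands were separate islands of ordinary size and density. In the deserts, WT islands averaged 11.1 kb and KO islands 9.77 kb, with 39.1 and 39.6 reads per kb. KO islands without a WT partner had a median length of 8.5 kb, beside 10 kb for those with one. Counts per island carry no scaling to library depth, so these densities do not compare the strength of the mark. The spacing differed, since the median distance between the centres of neighbouring islands of a desert was 81 kb for WT and 33 kb for KO. The longest WT island of any desert, chr12:39802001-39836500 between Etv1 and Arl4a, measured 34.5 kb, of which 14.5% lay under KO islands. In KO the longest was chr1:47398001-47461000, with 63 kb and 2479 reads, of which 42.9% lay under WT islands. It contains the start of Gm39639 shown above. An island at chr2:98662001-98668500, named for its density after the values were seen, stood apart in both lists, with 360 reads per kb in WT and 364 in KO. The next densest desert island reached 64.3 in WT and 66.0 in KO. The island at chr2:98662001-98668500 had the same ends in both lists, with 2340 reads in WT and 2363 in KO. The inputs were not analysed, so whether its density reflects the mark was not tested.

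Most of the WT islands of deserts were also called, at least in part, in KO. A KO island overlapped 807 of 1426 WT islands by 1 bp or more (56.6%, 54.0 to 59.2), and 46.8% (45.8 to 47.7) in bins with genes. The KO cover that such an overlap can meet differs, at 18.6% of desert sequence and 9.30% of bins with genes. By length, KO islands covered 35.9% of the WT island sequence of deserts and 31.4% of that in bins with genes. Set against the cover, the share was thus the lower in deserts. The reverse share was small. A WT island overlapped 873 of 5097 KO islands (17.1%, 16.1 to 18.2), and the other 4224 were called in KO alone. In bins with genes the reverse share was 26.7% (26.1 to 27.3), at a WT cover of 5.61% beside 5.93% in deserts. These intervals cover counting of islands only. In 4 groups of WT desert islands by reads per kb, 52.4% of the sparsest and 58.8% of the densest were overlapped. For KO desert islands these shares were 12.7% (10.9 to 14.7) and 18.8% (16.7 to 21.0), with 19.5% (17.4 to 21.8) in the third group. A desert held a median of 16 islands in KO alone, and 227 deserts held 10 or more. These values were not computed for bins with genes, so they are not particular to deserts.

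Retention of WT islands was counted per desert, and the same counts were not made for bins with genes. With a median of 4 WT islands per desert, all or none often rested on few islands. Of the 255 deserts with a WT island, 27 had every one overlapped by a KO island and 36 had none overlapped. Among the 133 with at least 5 WT islands, 3 had all overlapped and 1 had none. Gain in number therefore did not mean that WT positions were kept. In the gaining deserts 433 of 1079 WT islands had no KO partner (59.9% overlapped, 56.9 to 62.8), and in the kept deserts 171 of 328 had none (47.9% overlapped, 42.3 to 53.4). The class rule uses KO number, so the KO cover that an overlap can meet differs, at 19.5% in gaining and 14.8% in kept deserts. By length, KO islands covered 37.5% and 32.2% of the WT island sequence. Set against the cover, the share was the lower in gaining deserts.

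The deserts with the largest gain in number lay between genes of several kinds. After 4 bins with gains of 29 to 32 islands, 4 more tied at a gain of 28, of which the 2 with the larger difference in cover are described. The tied bins not described further were chr16:53000001-54000000, with 9 WT and 37 KO islands, and chr17:77000001-78000000, with 12 and 40. The bin chr1:41000001-42000000, between Tmem182 and Pou3f3, a neural transcription factor gene, held 4 WT islands over 41 kb and 36 KO islands over 369 kb. It carries 4 lncRNA genes, among them Gm39631. Of its 4 WT islands 3 were overlapped. The bin chr12:68000001-69000000, between Mdga2 and the ribosomal protein gene Rps29, went from 8 WT to 40 KO islands, over 80 and 383 kb. The bin chr1:145000001-146000000, between Rgs18, a regulator of G protein signalling, and Brinp3, went from 7 to 38, over 85.5 and 309 kb.

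The remaining 3 of these 6 showed the same form. The bin chr16:68000001-69000000, beside the synaptic adhesion gene Cadm2, held 3 WT islands over 25.5 kb and 32 KO islands over 271.5 kb, and all 3 WT islands were overlapped. The bin chr13:88000001-89000000, into which the extracellular matrix gene Edil3 reaches over 17.9% of the sequence, held 5 WT and 33 KO islands over 52 and 359 kb. The start of Gm34585 lies there. The bin chr16:54000001-55000000, between Alcam and Zpld1, was already rich in WT. Alcam, which encodes CD166, the ligand of CD6 on T cells, lies 1547 kb from the edge of this bin, with another desert between. Zpld1 lies 224 kb from the other edge. This bin held 17 WT islands over 198.5 kb and 45 KO islands over 456 kb, the highest KO number of any desert, and 16 of the 17 WT islands were overlapped.

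Gain from an empty WT state was seen in 10 deserts, which held 6 to 27 KO islands and 0 in WT. A bin between Auts2, a gene of neurodevelopment, and Castor2 held the 27, at chr5:133000001-134000000. Its neighbour chr5:132000001-133000000, 54.3% of which is filled by Auts2, held 6. Another, with 18 KO islands (chr3:43000001-44000000), lay in the middle of a run of 3, with Pcdh10, a protocadherin gene of neuronal adhesion, 1378 kb from its edge. A bin with 13 (chr14:81000001-82000000) lay 977 kb from Olfm4.

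Gain was also seen where WT already had many islands. Beside Sema6d, a semaphorin gene of axon guidance, chr2:123000001-124000000 held 12 WT islands over 155 kb and 39 KO islands over 476.5 kb, with 105.5 kb in common. Beside the nuclear receptor gene Nr4a2, chr2:56000001-57000000 held 14 and 38 islands over 189.5 and 408 kb, with 136 kb in common, and miR-195b lies there. At Tmeff2, which reaches into it, chr1:50000001-51000000 held 19 and 42 islands over 229 and 453.5 kb, with 173.5 kb in common. These bins, named after their values were seen, thus carried most of their WT island sequence into KO and held more KO island sequence than that outside WT islands.

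Bins that lie within a long gene, whose midpoint is elsewhere, all gained, but to lower numbers. The 10 bins with gene bodies over at least 50% held a mean of 3.4 WT and 13.9 KO islands, beside 5.5 and 19.8 in the 209 bins with no gene body. The bin filled by Ptprd, a receptor phosphatase gene of synapses, held 3 and 13 islands (chr4:76000001-77000000). The bin filled by Lsamp, a neural adhesion gene, held 2 and 12 (chr16:40000001-41000000), and that filled to 94% by Cntnap2 held 5 and 16 (chr6:45000001-46000000).

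**Figure D3:**
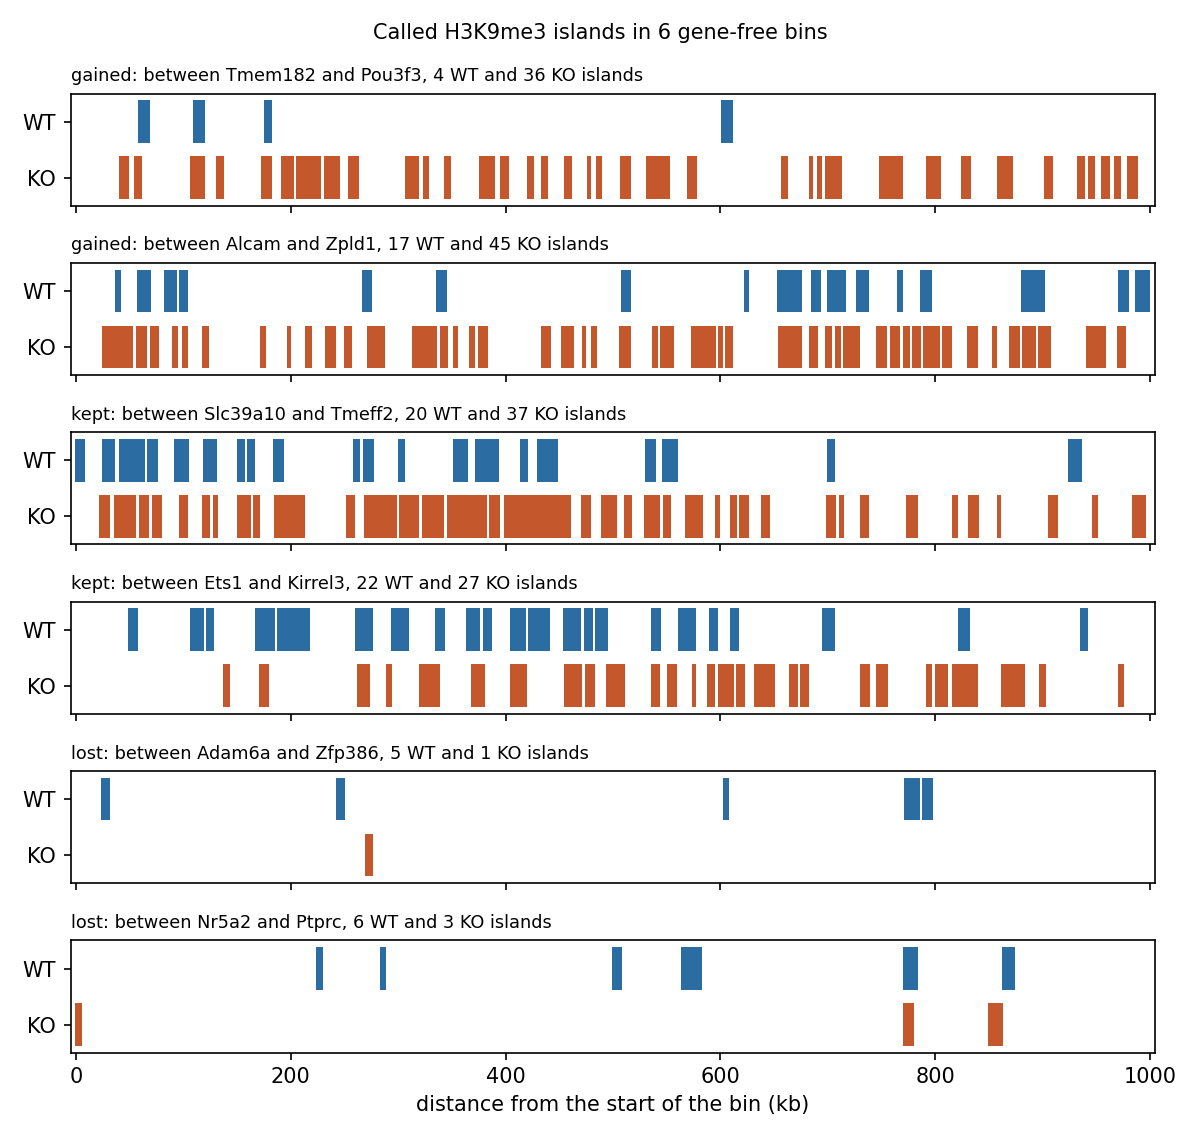
Called islands in 6 named deserts, WT above and KO below, by distance from the start of the bin in kb. The gaining bins between Tmem182 and Pou3f3 and between Alcam and Zpld1 carry 36 and 45 KO islands spread along the bin, the kept bins beside Slc39a10 and Ets1 carry many in both lists, and the losing bins beside Adam6a and Ptprc carry 1 and 3 KO islands.

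Deserts that kept their islands had many in WT. Their medians were 10.5 WT and 14 KO islands, against 4 and 20 in the gaining deserts, and 20 of the 30 had more islands in KO, 8 had fewer and 2 had equal numbers. WT number enters the rule, since a bin with many WT islands needs more KO islands to pass 2 times. Of the 34 deserts with 10 or more WT islands, 17 gained and 17 were kept. The longest shared sequence was in chr1:47000001-48000000, the first bin of the run between the zinc transporter gene Slc39a10, 74.2 kb away, and Tmeff2. It had 20 WT islands over 238 kb, 37 KO islands over 492.5 kb and 181.5 kb in common. The bin chr9:33000001-34000000, between Ets1, a transcription factor of lymphocytes, and Kirrel3, had the highest WT number. There, 22 WT islands over 290.5 kb stood beside 27 KO islands over 306 kb, with 112.5 kb shared.

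Other kept deserts ranged from parity in cover to a clear KO excess. The bin chr19:35000001-36000000, between Kif20b and the serotonin receptor gene Htr7, held 18 WT islands over 194 kb and 23 KO islands over 196 kb. The bin chr10:54000001-55000000, between Man1a, an enzyme of N-glycan trimming, and Msl3l2, had 225 and 272.5 kb in 15 and 23 islands. In chr2:46000001-47000000, between Zeb2, a transcription factor of terminal effector CD8+ T cells, and Acvr2a, an activin receptor gene, 18 WT and 30 KO islands covered 204 and 293.5 kb. In chr12:42000001-43000000, between Immp2l and Dnajb9, 15 and 23 islands covered 158.5 and 271 kb. Similar numbers hid different positions. The 3 longest WT desert islands without KO overlap measured 32.5, 30 and 27.5 kb, and all lay in kept bins. They were chr10:54332501-54365000, chr9:33187501-33217500 and chr16:51459001-51486500, the last in a bin beside Cblb, the ubiquitin ligase that restrains T cell activation, which held 11 islands in each list. The 3 longest KO desert islands without WT overlap were chr2:159157001-159197500 (40.5 kb), chr6:69894501-69928500 (34 kb, at the immunoglobulin kappa segment Igkv5-39) and chr11:27262501-27296000 (33.5 kb).

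Several further kept deserts lay between genes of transcription factors or signalling. At 857 kb from Gata3 (chr2:8000001-9000000) 15 WT and 19 KO islands covered 157.5 and 173.5 kb, with 46 kb in common. Between Bcl11a and Fancl (chr11:25000001-26000000) 8 and 13 islands covered 117 and 123 kb, with 34 kb in common. Between Nmbr and Cited2, the bin on the Nmbr side (chr10:15000001-16000000) held 9 and 15 islands and that on the Cited2 side (chr10:16000001-17000000) 16 and 15. Shared sequence was below WT cover in each of these bins, so similar totals came from partly different positions. In the bin that the costimulatory gene Icos reaches into (chr1:61000001-62000000) 14 and 12 islands covered 183.5 and 105 kb, with 27.5 kb in common.

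Islands were lost in 3 deserts. In chr18:55000001-56000000, between Zfp608 and Gramd3, 8 WT islands over 69 kb stood beside 3 KO islands over 24 kb, and 2 of the 8 were overlapped. This bin carries 9 lncRNA genes. In chr12:114000001-115000000, within the variable region of the immunoglobulin heavy chain with 88 V segments or V pseudogenes, 5 WT islands over 46.5 kb stood beside 1 KO island of 7.5 kb, and 0 of the 5 were overlapped. The longest of the 5, chr12:114771001-114785500, held 736 reads over 14.5 kb. In chr1:137000001-138000000, between Nr5a2 and Ptprc, 6 WT islands over 67.5 kb stood beside 3 KO islands over 30.5 kb, and 2 of the 6 were overlapped. Ptprc encodes CD45, the phosphatase that sets T cell receptor signalling. With differences of 3 to 5 islands, these calls rest on few islands. Decreases of 4 islands were also found in 2 kept deserts, whose numbers changed by less than 2 times. These lay beside Tox (chr4:7000001-8000000, 10 WT and 6 KO islands) and Setbp1 (chr18:79000001-80000000, 11 and 7). The class refers to number and not to position. Beside Tox 5 kb of 108 kb of WT islands were shared with KO, and beside Setbp1 28.5 of 153.5 kb. Decreases of 2 were found in the bin that Icos reaches into, described above, and in the bin that Rora reaches into (chr9:68000001-69000000, 6 and 4). Tox and Rora encode transcription factors of T cells and innate lymphoid cells.

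The losing bin beside Ptprc also carries the microRNA genes Mir181a-1 (chr1:137966455-137966541) and Mir181b-1 (chr1:137966639-137966718). MicroRNAs of this family raise the sensitivity of developing T cells to antigen. Neither lay under an island, with the nearest WT island 92.0 kb away and the nearest KO island 103 kb away from Mir181a-1. Their mature 5p sequences, printed above, have the same seed. The 3 KO islands of this bin were 1 at its start edge (chr1:136999501-137006000), 1 over the start of Gm34306 (chr1:137770001-137780000) and 1 at chr1:137849501-137863500. The WT island over Gm34306 held 536 reads over 14 kb and the KO island 380 reads over 10 kb.

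Deserts that hold antigen receptor segments had fewer islands in both lists. The 5 bins with V segments held 13 WT and 24 KO islands, a ratio of 1.85, against 1413 and 5073 in the other 263, a ratio of 3.59. Their cover was 2.63% in WT and 4.71% in KO, against 5.99% and 18.8%. The bins at the immunoglobulin kappa locus, chr6:68000001-69000000 and chr6:69000001-70000000, gained, from 5 to 12 and from 1 to 10 islands. At the heavy chain locus the bin described above lost, and its neighbour chr12:115000001-116000000 had 2 and 1. The bin chr14:53000001-54000000, with 94 V segments or V pseudogenes of the T cell receptor alpha and delta locus, had no island in either list and was the sole such desert. These loci are made of near-identical copies, so reads there could be placed on more than 1 segment. The sources used here do not state how such reads were treated. The other bins with few islands were chr7:136000001-137000000, between the proliferation gene Mki67 and Mgmt, and chr18:81000001-82000000, between Sall3 and Galr1.

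Gain ran through whole runs of deserts. The 183 runs had lengths of 1 bin (120 runs), 2 (47), 3 (10) and 4 (6), and 172 runs had more KO than WT islands. In 14 of the 16 runs of 3 or more bins every bin gained. The highest ratio among runs of 3 bins was beside the cadherin gene Cdh20 (chr1:101000001-104000000), with 3 WT and 39 KO islands. Beside Pcdh10 (chr3:42000001-45000000) the numbers were 6 and 49, beside Tenm2 (chr11:37000001-40000000) 6 and 47, and beside Slitrk5 (chr14:112000001-115000000) 9 and 62. The lowest was beside Pcdh7 (chr5:58000001-61000000), with 18 and 42, where 1 bin was kept. Of the 6 runs of 4 Mb, the rule for naming took the 3 of largest difference in cover. Between Slc39a10 and Tmeff2 (chr1:47000001-51000000) 54 WT and 138 KO islands covered 633 and 1540.5 kb. Between the protocadherin genes Pcdh20 and Pcdh9 (chr14:89000001-93000000) 17 and 74 islands covered 181 and 731 kb. Between the teneurin gene Tenm3 and Aga (chr8:49000001-53000000) 14 and 69 islands covered 141 and 657 kb. Among all 6 such runs the ratio of KO to WT number ranged from 2.56 to 7.29, the highest being between Celf4 and Pik3c3 on chromosome 18, with 7 and 51 islands.

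The ratio was highest in the most isolated deserts. In 22 deserts whose adjoining bins had no gene, the mean was 3.18 WT and 16.9 KO islands, a ratio of 5.31, and all 22 gained. With 6 or more genes in the adjoining bins (94 deserts) the means were 6.46 and 20.3, the ratio 3.14, and 71 gained. Both means were thus lower where the adjoining bins had no gene, the WT mean more so. By distance from the bin centre to the nearest gene, the nearest of 4 equal groups (up to 512 kb) had a ratio of 3.25 and the farthest (1012 to 2029 kb) one of 4.03. Here the WT means were alike, at 4.96 and 4.73, and the KO means were 16.1 and 19.1. Runs of 3 or more bins had a ratio of 4.27, and single bins 3.44. As descriptions over 268 bins that share 2 libraries, the Spearman rho of the gene number of the adjoining bins was 0.22 with WT number, 0.16 with KO number and 0.07 with their difference. Of the 65 deserts with 3 or more lncRNA genes 46 gained, and of the 90 with none 83 did. WT and KO numbers went together moderately across deserts, with a Pearson r of 0.49 and a Spearman rho of 0.48.

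**Figure D4:**
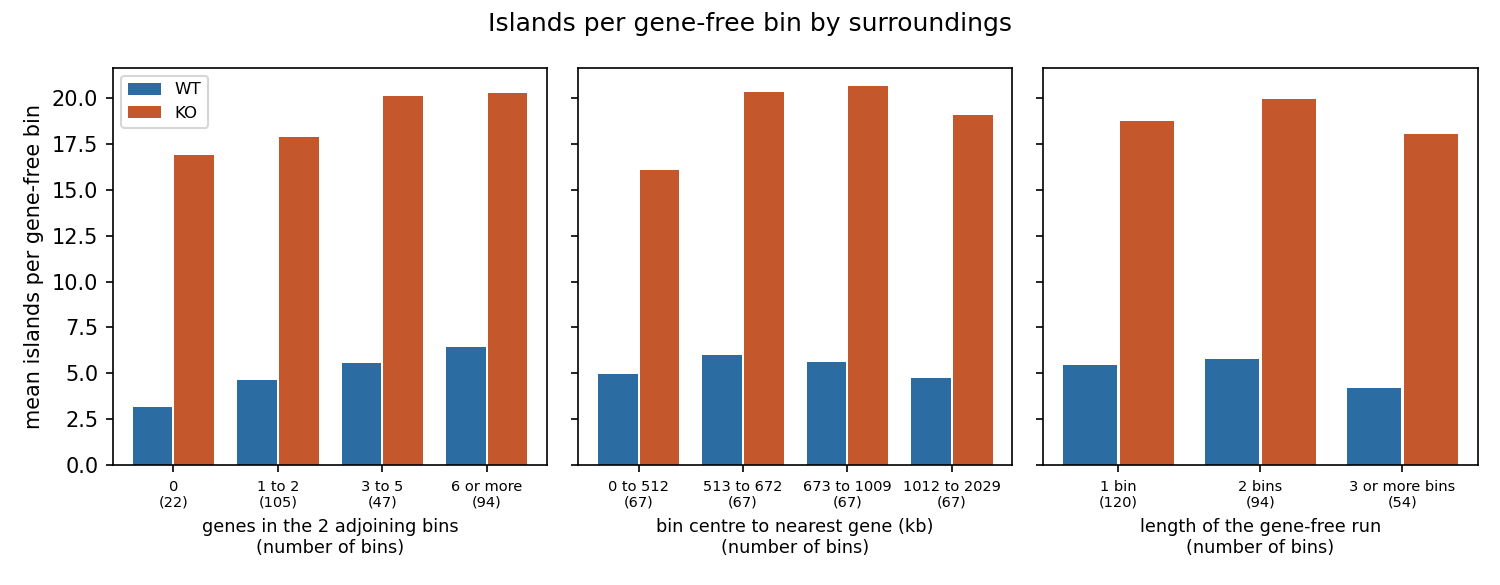
Mean number of islands per gene-free bin (vertical) in WT and KO by the genes in the 2 adjoining bins, the distance from the bin centre to the nearest gene body in kb and the length of the run, with the number of bins in brackets. WT means range from 3.18 to 6.46 over the classes of adjoining genes and KO means from 16.9 to 20.3.

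Every autosome shared the pattern. The ratio of KO to WT island number in deserts ran from 2.02 on chromosome 9 (6 deserts) to 5.33 on chromosome 8 (18 deserts), and it was above that of bins with genes on 19 of 19 autosomes. In bins with genes the ratios ran from 1.33 to 2.37. All deserts gained on chromosomes 6, 8 and 13. Cover in KO was highest on chromosome 13, at 27.5% of desert sequence beside 6.67% for WT, and lowest on chromosome 18, at 13.4% beside 4.24%. Toward the chromosome start the ratio was lower, at 2.87 in 33 deserts within 20 Mb and 4.66 in 52 deserts beyond 100 Mb, where WT means were 6.18 and 3.9. The mouse centromere lies at the chromosome start.

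**Figure D5:**
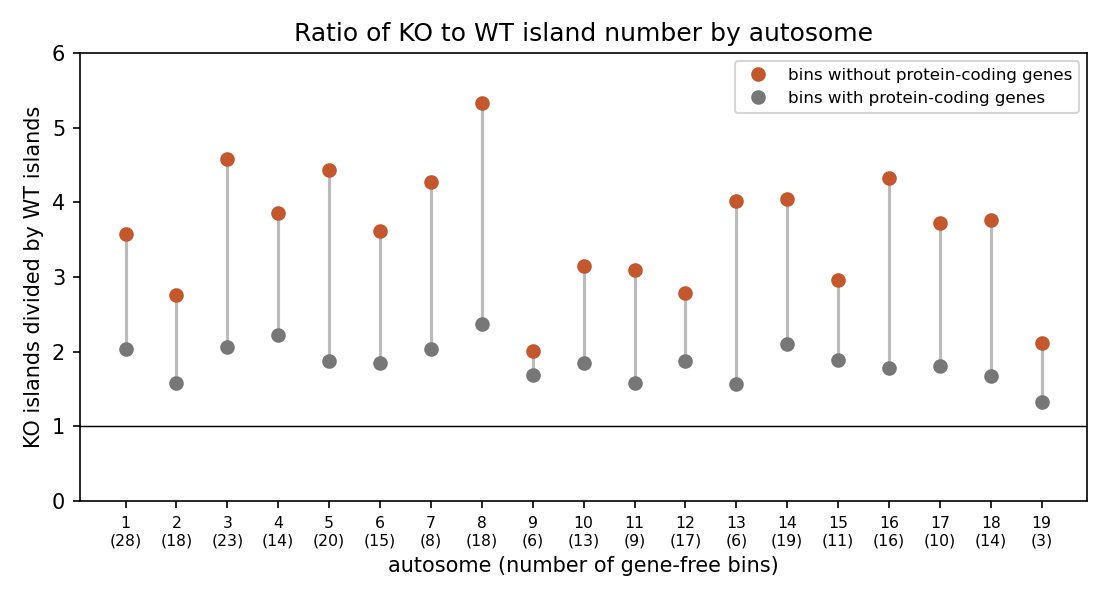
KO island number divided by WT island number (vertical) for each autosome, in bins without protein-coding genes and in bins with them, with the number of gene-free bins in brackets. The gene-free value is the higher on each of the 19 autosomes, from 2.02 on chromosome 9 to 5.33 on chromosome 8.

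The genes that border deserts were counted by name. The runs had 339 different flanking genes. Cadherin genes (symbols starting Cdh and a number), which mediate calcium-dependent cell adhesion, gave 10 of them, 2.95% against 0.112% of all 20558 autosomal protein-coding genes. Contactin and contactin-associated genes gave 6 (1.77% against 0.0632%) and protocadherins 6 (1.77% against 0.326%). Glutamate receptor genes named Gria, Grid, Grik or Grm gave 5 (1.47% against 0.0924%), a pattern that leaves out Grin3a, which also flanks a desert. Genes with symbols starting Kcn, among them Kcnip4 beside potassium channels, gave 7 (2.06% against 0.448%). Of the adhesion receptor genes named Adgrl 3 of 4 flanked deserts, and of the Slitrk genes, which act at synapses, 3 of 4. Olfactory and vomeronasal receptor genes, which lie in dense clusters, gave 0. These shares describe the annotation, which fixed the deserts, and not the islands.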

How the data were processed

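H3K9me3 chromatin immunoprecipitation and sequencing was done on CD8+ T cells of 2 genotypes, with 1 library and 1 input each. The inputs are not analysed here. Bowtie2, SICER 1.1 and build mm10 are listed in the submitters' processing notes. Window, gap, threshold, duplicate handling and use of the input in SICER are not stated there. Each deposited list gives, per island, a start and end on a grid of 500 bp and a whole-number count, which was read as ChIP reads, as it follows island length (Spearman rho 0.973 in WT, 0.980 in KO). The deposited counts are unscaled, and library depth is unknown, since the 5547695 WT and 10020253 KO reads are those inside islands. How much of the difference between lists comes from depth, input or enrichment cannot be told apart.

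Positions were converted to count from 1. Genes came from the RefSeq table of GRCm38.p6, without 365 rows on scaffolds, leaving 20558 autosomal protein-coding genes. A chromosome was taken to end at its last gene or island, and the last incomplete bin was dropped. Islands went to bins by midpoint, and cover sums the length of those islands. Shares have exact (Clopper-Pearson) 95% intervals, which cover counting only and not the spread between libraries. Class, overlap and bin functions were tested on simulated islands. Regions named are the 6 bins with largest gain, the losing bins, the 6 kept with most shared sequence, the 3 longest runs, the longest islands, and bins with few islands. Deserts without WT islands, with V segments, or with microRNAs, and the printed promoters, were picked after their values were seen. Members, gene lists and settings were chosen with earlier results of these data known. Work used Python 3.11.15, pandas 2.3.3 and scipy 1.17.1.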

Additional observations from a re-analysis of the deposited data

How the results depend on the processing

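The ratio of KO to WT desert islands (3.57), the ratio of cover (3.14), the class shares and the overlap shares stayed within their 95% intervals with islands of at least 2 kb, without the densest 1%, on a grid shifted by 500 kb and in bins with no gene body. They also did so without V-segment bins or without chromosome 1, both chosen after the data were seen. For the number ratio the interval (3.37 to 3.79) came from the exact binomial one of the island counts. The cover ratio has no interval of its own, and that of the number ratio was rescaled to it (2.96 to 3.33). Islands were treated as independent counts there. Above the median of reads per kb the ratios were 4.74 for number and 4.39 for cover, 80.2% of deserts gained, and 32.3% of WT and 7.20% of KO islands overlapped. With equal numbers of islands, which drops only KO islands, the ratios were 1.75 and 2.03, with 50.4% gaining, 41.4% kept and 5.6% losing, and overlap was 36.3% and 21.1%. Over all autosomal bins that setting gave 19.6% gaining and 25.2% losing. With the KO number divided by the ratio of list sizes, 46.6% gained, 47.8% were kept and 4.10% lost. At 1.5-fold 91.0% gained and 5.97% were kept, at 3-fold 72.8% and 25.7%, and by covered length 81.7% and 16%. When at least 50% of an island had to be covered, 39.2% of WT and 11.7% of KO islands overlapped. Bins with no gene of any kind numbered 3, with a number ratio of 3.22, 66.7% gaining, 33.3% kept, 0% losing and overlaps of 33.3% and 10.3%. The cause of these shifts was not tested. KO exceeded WT in number and cover in every setting run. No paired analysis was possible because WT and KO are single libraries. No replicate could be left out.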

Other observations

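A further reading of the deserts, made after their flanking genes and classes were seen, concerned those next to genes of T cell biology. A list of 149 such genes was written at that point, so it has no test, and its counts are a description of these 2 libraries. Of these genes 11 flanked a run of deserts, and each had 1 desert directly next to it, with no other desert between. Of these 11 deserts, 2 gained (18.2%), 8 kept and 1 lost islands, whereas 89.5% of the other 257 deserts gained. The 11 held 129 WT and 190 KO islands, a ratio of 1.47, against 3.78 in the others. Their medians were 11 WT and 12 KO islands, against 4 and 19. With 3 further bins of the same runs that lie 1 bin farther from the gene, all gaining, 5 of 14 gained (35.7%) and the ratio was 1.70. All these counts depend on which genes were put on the list. Flanking genes left off it adjoined gaining deserts, such as Stim2 (3 WT and 23 KO islands) and Map3k7 (2 and 20). Kept deserts had such neighbours too, among them Bcl11a (8 and 13). How the shares would change with another list was not tested. WT number also enters the class rule, and of all 34 deserts with 10 or more WT islands 17 gained. The 257 other deserts, with a WT median of 4, are thus not a like comparison.

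The kept deserts of this group included that at Icos, a costimulatory receptor gene (14 WT and 12 KO islands), and that 857 kb from Gata3, a T lineage transcription factor gene (15 and 19). Others had Zeb2 (18 and 30, at 883 kb), Ets1 (22 and 27) and Cblb (11 and 11) as neighbours. Fewer KO than WT islands were called next to Tox, the regulator of exhaustion (10 and 6), at Rora (6 and 4), next to Myc (4 and 3) and, in the losing bin, next to Ptprc (6 and 3). The gaining deserts were those on the side of Alcam (9 and 37, at 547 kb) and of the nuclear receptor gene Nr4a2 (14 and 38). The desert at Icos went from 183.5 kb of islands in WT to 105 kb in KO, with 27.5 kb in common. That beside Tox went from 108 to 58 kb, with 5 kb in common. Whether these islands touch regulatory elements of the named genes was not tested.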
